A study of Homo sapiens with 6 samples.

Results

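The 4 ATAC-seq libraries of Huh7 cells that carry the V2084D form of ARID1A, with or without a hairpin against STUB1, were pooled and set against the 2 libraries that carry wild-type ARID1A. ATAC-seq marks open chromatin through insertion of sequencing adapters by the Tn5 transposase, and Huh7 is an established human hepatocellular carcinoma line. Accessible intervals (peaks) of all 6 libraries on chromosomes 1 to 22 and X were merged where they overlapped by at least 1 bp. A merged region was called V2084D-carrying when all 4 V2084D libraries had a peak in it and neither WT library did, and WT-only in the reverse case. Of 28879 merged regions, 776 were V2084D-carrying (2.69% of all regions) and 19 were WT-only (0.0658%).

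In every group the endogenous ARID1A gene was knocked out and a Flag-tagged ARID1A was stably expressed from a lentivirus. The WT group (2 libraries) received the wild-type protein and the V2084D group (2 libraries) the missense form. The V2084D shSTUB1 group (2 libraries) received the missense form together with a knockdown of STUB1. The labels name no control hairpin for the other groups, do not say whether lines were clones or pools, and do not say whether replicates were separate cultures. Any p-value therefore measures the spread between these libraries, which may be technical. The pooled comparison asks which accessible regions go with the missense form whatever the STUB1 status.

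ARID1A is the DNA-binding subunit that defines the canonical BAF form of the SWI/SNF complex, which uses ATP to slide or evict nucleosomes at promoters and enhancers. Its C-terminal part docks it onto the core of the complex, and ARID1A is among the chromatin genes most often altered in liver cancer. STUB1 (also called CHIP) is a ubiquitin ligase that works with HSP70 and HSP90 on misfolded proteins.

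Some of the promoters that lay wholly inside leading V2084D-carrying regions are shown first, since most of these regions sit at gene ends. Each sequence is the RefSeq (GRCh38.p14) promoter, 250 bases before to 50 after the start site, on the strand of the gene, 5′ to 3′. Capitals mark matches, on either strand, to the GC box GGGCGG, the CCAAT box CCAAT, the ETS motif CCGGAAG or, in MRPL46 alone, the YY1 motif. RAB40C lies at chr16:589419-589718 (plus strand), MRPL46 at chr15:88467339-88467638 (minus), KIF23 at chr15:69414099-69414398 (plus), IFT70B at chr2:177552747-177553046 (minus) and DHX9 at chr1:182839097-182839396 (plus).
RAB40C: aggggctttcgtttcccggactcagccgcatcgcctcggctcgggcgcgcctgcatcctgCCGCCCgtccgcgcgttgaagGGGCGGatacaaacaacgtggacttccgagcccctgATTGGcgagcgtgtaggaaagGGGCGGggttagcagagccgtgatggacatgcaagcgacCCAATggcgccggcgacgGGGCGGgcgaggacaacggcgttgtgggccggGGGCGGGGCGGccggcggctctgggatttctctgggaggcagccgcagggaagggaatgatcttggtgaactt
MRPL46: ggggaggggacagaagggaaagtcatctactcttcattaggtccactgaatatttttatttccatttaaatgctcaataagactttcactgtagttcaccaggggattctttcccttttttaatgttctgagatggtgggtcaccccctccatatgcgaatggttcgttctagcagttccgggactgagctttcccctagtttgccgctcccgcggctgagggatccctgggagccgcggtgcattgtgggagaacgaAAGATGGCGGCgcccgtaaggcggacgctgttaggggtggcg
KIF23: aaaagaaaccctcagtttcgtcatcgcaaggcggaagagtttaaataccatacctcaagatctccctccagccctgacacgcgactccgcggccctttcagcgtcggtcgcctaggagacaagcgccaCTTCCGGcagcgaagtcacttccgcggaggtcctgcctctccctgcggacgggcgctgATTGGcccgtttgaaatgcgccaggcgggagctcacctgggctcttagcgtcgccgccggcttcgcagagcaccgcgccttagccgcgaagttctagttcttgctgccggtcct
IFT70B: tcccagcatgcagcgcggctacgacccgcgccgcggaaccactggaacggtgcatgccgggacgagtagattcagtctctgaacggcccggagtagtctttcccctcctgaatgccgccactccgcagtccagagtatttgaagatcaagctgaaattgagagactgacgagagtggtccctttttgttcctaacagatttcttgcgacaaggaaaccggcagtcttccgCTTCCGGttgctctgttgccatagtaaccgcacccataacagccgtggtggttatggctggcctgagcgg
DHX9: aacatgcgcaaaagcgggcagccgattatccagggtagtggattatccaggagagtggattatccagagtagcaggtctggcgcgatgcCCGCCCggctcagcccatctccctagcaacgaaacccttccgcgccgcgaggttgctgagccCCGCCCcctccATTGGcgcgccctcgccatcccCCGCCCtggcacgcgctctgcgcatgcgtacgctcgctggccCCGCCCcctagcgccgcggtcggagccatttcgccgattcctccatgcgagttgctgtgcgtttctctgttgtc
These promoters differ in composition. RAB40C holds 6 GC boxes and 2 CCAAT boxes, and DHX9 holds 4 GC boxes and 1 CCAAT box. KIF23 pairs 1 CCAAT box with 1 ETS motif, IFT70B has 1 ETS motif, and MRPL46 has 1 YY1 motif close to its start. The promoters of MRPS11, in the same region as MRPL46, and of MRPL42, in a region of similar rank, held none of these motifs and are not shown.

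The lists differed in length and depth. Depth ran along the comparison, while length did so only in part, since V2084D replicate 1 had a shorter list than WT replicate 1. There were 8861 and 6394 regions in the WT lists, 8008 and 22215 in those of V2084D, and 16687 and 12320 in those of V2084D shSTUB1. Relative depth, worked out from how fold and p go together at summits, was lowest in both WT libraries (1.01 and 1 relative to the lowest) and 1.17 to 1.70 in the 4 V2084D libraries. Genotype and depth can therefore not be told apart in the deposited lists, and absence of a peak says only that the caller made none with the reads at hand. Peak calls rest on few reads, with a median of 8 to 12 at the summit per library. A gene-end peak was found for 1 to 3 of 24 hepatocyte secreted proteins and 1 to 7 of 20 hepatocyte transcription factors per library. ALB, AFP and HNF4A had none in any library, while the liver transcription factor genes CEBPA and FOXA3 had one in 5 of 6. Neuronal markers had gene-end peaks for 1 to 5 of 9, leukocyte markers for 0 to 3 of 13, endothelial markers for 0 to 1 of 9, and fibroblast and stellate markers for 2 to 3 of 10. Among the secreted proteins, TF had one in 4 and APOA1 in 3. ARID1A itself had a gene-end peak in V2084D shSTUB1 replicate 2 alone (fold 5.80) and STUB1 in no library, so neither the knockout nor the knockdown is checked by these data.

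The 776 V2084D-carrying regions were not the largest such set among the possible pairs of libraries. With each of the 15 pairs of libraries taken in turn as the side without a peak, the count ranged from 1 to 821. The WT pair ranked 2nd, behind WT replicate 2 with V2084D replicate 1 (821 regions) and ahead of WT replicate 1 with V2084D replicate 1 (355 regions). One-sided p was 0.133 by an exact permutation test over the 15 pairs, whose smallest possible p is 0.0667. The pairs that left many regions to the other 4 libraries were the 3 pairs drawn from the 3 shortest lists. In the WT-only direction the 19 regions ranked 13th of 15 (range of the other pairs 15 to 2126, one-sided p = 0.867 by the same exact permutation test). By genes, 612 protein-coding genes had a peak within 1000 bp of a gene end in all 4 V2084D libraries and in neither WT library (5.27% of the 11618 genes with such a peak in any library). This was the highest of the 15 counts, followed by 550 for WT replicate 2 with V2084D replicate 1 (one-sided p = 0.0667 by exact permutation, the smallest it can give). The reverse held for 5 genes (0.043%), ranked 13th of 15. The V2084D-carrying regions themselves lay at the ends of 607 genes, of which 550 also had the pattern as genes and 57 had a WT peak at another place near an end.

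The 3 shortest lists could be compared over the same ground. The 3 longest lists, V2084D replicate 2 and both V2084D shSTUB1 libraries, shared 9133 regions. Of these, 776 had a peak in V2084D replicate 1 and neither WT library, which are the V2084D-carrying regions. A further 821 had one in WT replicate 1 alone of the 3 short lists, 355 in WT replicate 2 alone, 3269 in all 3 short lists and 1349 in none. The 776 regions were 9.69% of the V2084D replicate 1 list (95% Wilson interval 9.06% to 10.4%). The corresponding sets were 9.27% of the WT replicate 1 list (8.68% to 9.89%) and 5.55% of the WT replicate 2 list (5.02% to 6.14%). By genes, the shares were 9.85% (9.13% to 10.6%), 8.52% (7.87% to 9.23%) and 4.66% (4.1% to 5.29%). These intervals cover counting error only and take regions or genes as units, which are not replicates. V2084D replicate 1 and WT replicate 1 thus shared nearly equal parts of their lists with the 3 long lists and with neither of the others.

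When every list was shortened to its 7234 summits of highest −log10 q, the length of the shortest list, the WT pair stood first in both directions. There were then 142 V2084D-carrying regions, against 66 to 110 for the other 14 pairs, and 222 WT-only regions, against 103 to 171. Each gave a one-sided p of 0.0667 by exact permutation over 15 pairs and so the smallest possible, so that no count could reach a conventional threshold in this design. Equal length does not make depth equal. Depth was lowest in both WT libraries and the lists were cut unequally, so these ranks cannot tell genotype from depth. By genes, 128 were V2084D-carrying (others up to 97, p = 0.0667 by exact permutation) and 116 WT-only, behind 123 for WT replicate 1 with V2084D replicate 1 and level with V2084D replicate 1 with V2084D shSTUB1 replicate 1 (p = 0.2 by exact permutation). Of the 142 regions, 92 had no WT peak in the deposited lists either. A deposited peak was listed in WT replicate 1 for 50, and 2 of these also had one in WT replicate 2. Of the 222 WT-only regions at equal length, 8 had no peak in any deposited V2084D list. A deposited peak was listed in V2084D replicate 2 for 199 of them, in the V2084D shSTUB1 libraries for 181 and 133, and in V2084D replicate 1 for 43. At equal length most WT-only regions therefore had a peak in a deposited V2084D list, and most V2084D-carrying regions had no deposited WT peak. The lists were cut unequally, so this contrast was largely set by the cut and is not a trait of the regions. WT replicate 2 kept all of its 7234 summits and WT replicate 1 was cut from 10213. The V2084D-carrying lists had 9036 to 29968 summits before the cut.

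**Figure D1:**
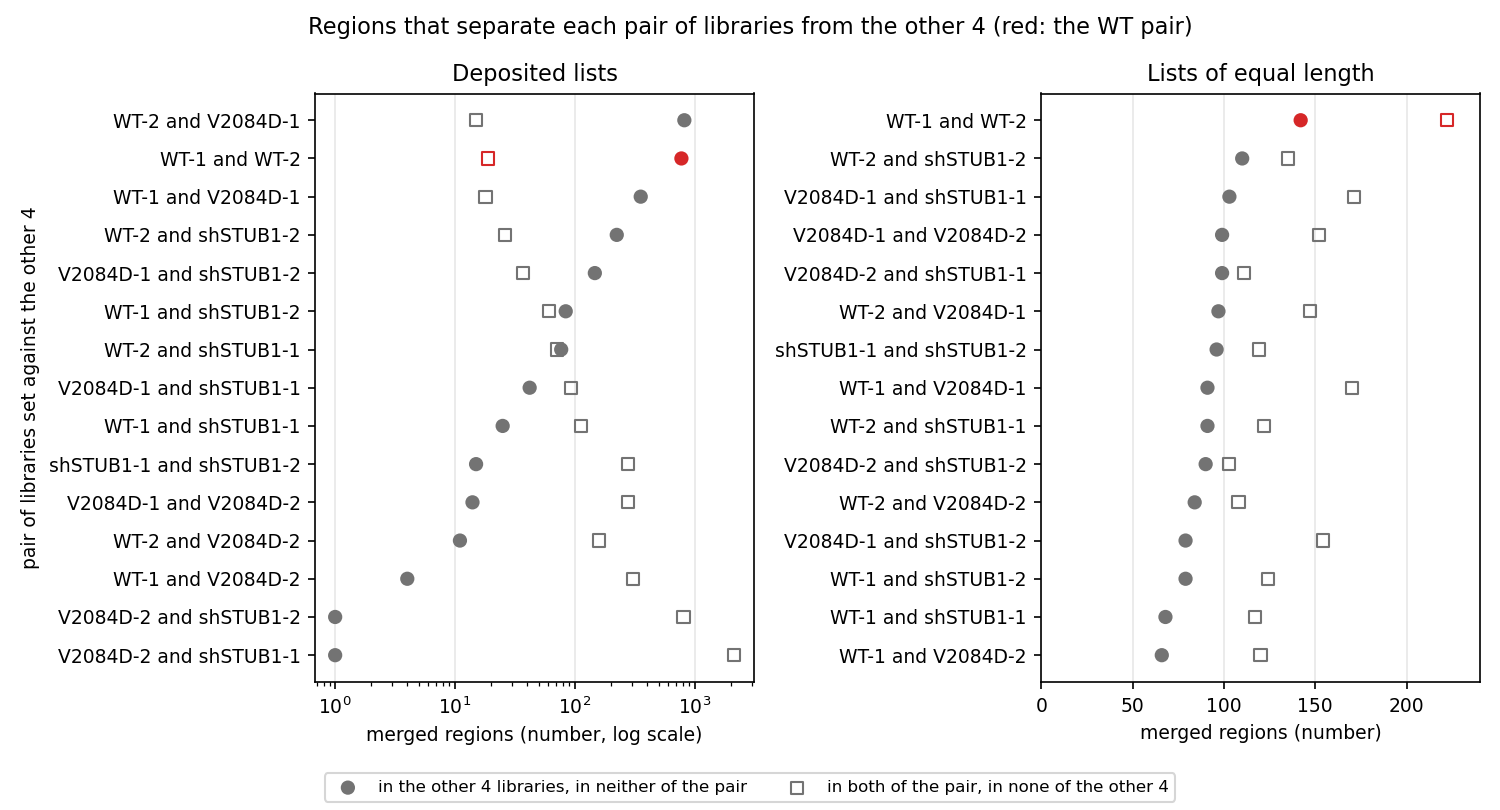
For each pair of libraries (vertical axis), the number of merged regions with a peak in the other 4 libraries and neither of the pair (filled circles) and the reverse (open squares), in the deposited lists (left, log scale) and in lists of equal length (right). The WT pair (red) is 2nd of 15 with 776 regions on the left and first in both directions, with 142 and 222 regions, on the right. Depth was not made equal in either panel.

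The WT-only side of the equal-length lists was led by SH3GL3, an endophilin gene, with folds of 8.99 and 8.14 in WT replicates 1 and 2. WT-only refers here to the shortened lists, since only 8 of the 222 regions had no peak in any deposited V2084D list. The folds given are from the WT lists alone. A region inside SIN3A, a histone deacetylase scaffold gene (5.18 and 5.28), the shared gene-end region of RPL9 and LIAS (7.65 and 7.95) and ATP5IF1, the inhibitor of mitochondrial ATP synthase (8.50 and 6.82), followed. The 11th of these regions, named out of rank order, lay at a gene end of SMARCA2, a SWI/SNF catalytic subunit gene (6.86 and 6.63). Its summits had 13 and 10 reads. In the deposited lists, 0 of 20 SWI/SNF subunit genes with a gene-end peak were WT-only. A lower-ranked SMARCA2 peak was listed in V2084D replicate 2 and V2084D shSTUB1 replicate 1. These regions were named after their values were seen.

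The V2084D-carrying regions lay mainly at gene ends. Of the 776, 518 (66.8%) were within 1000 bp of an end of a protein-coding gene, 117 (15.1%) inside a gene, 89 (11.5%) within 50 kb of one and 52 (6.7%) further away. Over all 28879 regions the gene-end share was 41.8%, and over the 3269 regions in all 6 lists it was 76.8%. Among the 15 pairs the 66.8% ranked 3rd (one-sided p = 0.2 by exact permutation), and the higher shares, 68% and 73.3%, rested on 25 and 15 regions. In the sets that had WT replicate 1 or WT replicate 2 in the place of V2084D replicate 1 the share was 58.7% and 54.9%. The V2084D replicate 1 list also had the highest gene-end share of the 6 lists (66.2%, against 47.8% to 62.9%). An annotated start site lay within 1000 bp of 452 regions (58.2%), and 49 (6.31%) had start sites of at least 2 genes, against 70.6% and 13.5% of regions in all 6 lists. In 116 regions the gene end had no listed start site nearby. The median width was 708 bp (quartiles 594 and 848), between that of all regions (402 bp) and of regions in all 6 lists (903 bp).

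**Figure D2:**
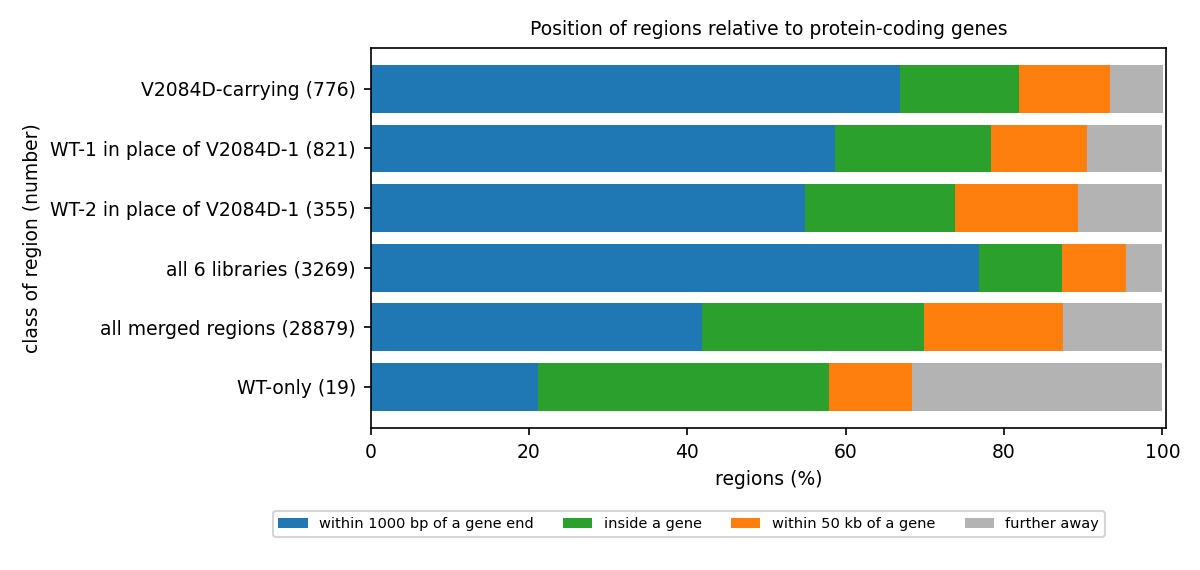
Share of regions (horizontal axis, %) by position relative to protein-coding genes, for 6 classes of region with their numbers in brackets. V2084D-carrying regions were at gene ends in 66.8% of cases, against 58.7% and 54.9% when a WT list took the place of V2084D replicate 1 and 21.1% for the 19 WT-only regions.

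Peaks in the V2084D-carrying regions were of middling strength in the lists that define them. Since presence of a peak chose the regions, these values are a description. The median deposited fold over local background was 5.30 in V2084D replicate 1, 6.31 in V2084D replicate 2, and 5.81 and 5.44 in V2084D shSTUB1 replicates 1 and 2. Regions in all 6 lists had medians of 5.81, 7.66, 6.99 and 6.64 in the same libraries, higher in each. Over all regions of each list the medians were 5.41, 5.47, 5.49 and 5.56, so the V2084D-carrying regions were above their list's median in V2084D replicate 2 and V2084D shSTUB1 replicate 1 only. The sets with WT replicate 1 or WT replicate 2 in the place of V2084D replicate 1 were above it in the same libraries. Their medians there were 6.25 and 6.25, and 5.67 and 5.75. In V2084D shSTUB1 replicate 2 they were below it, at 5.41 and 5.42. In V2084D-carrying regions the median number of reads at the summit was 8, 14, 11 and 9. Ranked within each list, they had a median percentile of −log10 q of 45.7, 68.0, 59.9 and 47.9. Averaged over the 4 libraries, the median percentile was 52.7, 2nd of the 15 pairs (range of the others 37.9 to 54.4). The value of 54.4 rested on 4 regions, and the next below, 52.2, on 1 region.

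Many members stood close to the calling threshold in at least 1 library. The weakest of the 4 peaks had a −log10 q under 1.5 in 42 regions (5.41%), under 2 in 136 (17.5%) and under 3 in 377 (48.6%), where the lists begin at 1.30 to 1.31. The weakest peak by percentile came from V2084D replicate 1 in 292 regions, from V2084D shSTUB1 replicate 2 in 272, from V2084D shSTUB1 replicate 1 in 147 and from V2084D replicate 2 in 65. Just outside the rule, 1938 regions had a peak in 3 of the 4 V2084D libraries and neither WT library. V2084D replicate 1 was the missing library in 1349 of them, V2084D shSTUB1 replicate 2 in 409, V2084D shSTUB1 replicate 1 in 142 and V2084D replicate 2 in 38. On the other side, 1804 regions had a peak in all 4 and in 1 WT library, which was WT replicate 1 for 1373 and WT replicate 2 for 431. Of the 1606 regions with a peak in each V2084D list but no WT list, 48.3% were V2084D-carrying, as were 31.8% of the 2442 found likewise in each V2084D shSTUB1 list. A WT peak lay within 1000 bp of 37 members (4.77%), and the median distance to the nearest WT peak was 49321 bp. Across the 776 regions, percentiles in 2 libraries were weakly related, with Spearman's rho from 0.10 to 0.33 over the 6 pairs, as a description over regions that share the same 4 libraries and a selected range.

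**Figure D3:**
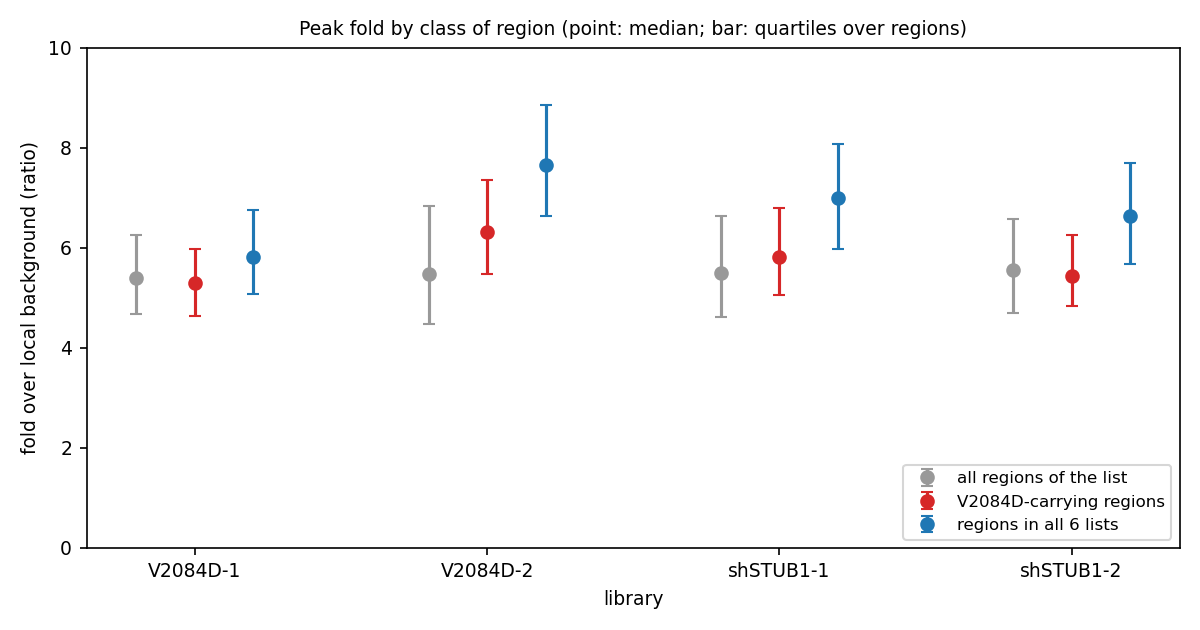
Deposited fold over local background (vertical axis, ratio) in the 4 V2084D-carrying libraries for all regions of the list (grey), V2084D-carrying regions (red) and regions in all 6 lists (blue), with points at medians and bars at quartiles over regions. Red points lie below blue points in every library (5.30 against 5.81 in V2084D replicate 1, 6.31 against 7.66 in V2084D replicate 2).

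The strongest V2084D-carrying regions at gene ends lay at genes of varied function, among them RAB40C, MRPL46 with MRPS11, MRPL42 and MED21. Regions were ranked by the mean percentile of −log10 q over the 4 libraries. Folds below are in the order V2084D replicates 1 and 2, then V2084D shSTUB1 replicates 1 and 2. RAB40C, a Rab-family GTPase that recruits a cullin ubiquitin ligase (chromosome 16, 589184 to 589956), had 8.08, 8.80, 9.43 and 6.0. The region shared by MRPL46 and MRPS11, which both encode proteins of the mitochondrial ribosome (chromosome 15, 88467084 to 88468031) had 8.24, 9.23, 8.80 and 7.14. All 4 libraries were high at both loci, and none of the values was below 6.0.

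MRPL42, another mitochondrial ribosomal protein gene (chromosome 12, 93467251 to 93467894), had folds of 7.59, 8.89, 8.91 and 9.15. MED21, a gene of the Mediator coactivator, had 6.88, 8.71, 9.71 and 7.30. KIF23, the mitotic kinesin of the central spindle needed for cytokinesis, had 6.74, 7.69, 8.06 and 7.69. V2084D replicate 1 gave the lowest fold at each of these 3 genes. IFT70B, which encodes an intraflagellar transport protein of cilia, had 7.56, 8.49, 7.98 and 7.23, and the RNA helicase gene DHX9 had 6.98, 7.5, 9.69 and 6.42. SRD5A3, a polyprenol reductase gene needed for N-glycosylation, had 6.74, 9.62, 7.0 and 8.24, and the ribosomal stalk gene RPLP1 had 7.01, 7.87, 5.52 and 7.52. GFPT2, an entry enzyme of hexosamine synthesis, had 7.33, 7.58, 6.64 and 6.15, and MPI, the mannose phosphate isomerase gene, had 5.98, 7.88, 7.83 and 7.80. V2084D replicate 1 was the highest of the 4 at none of these 11 regions. The summits held 10 to 43 reads. Where a peak had to cover 50% of a region, RAB40C, MRPL46 with MRPS11, MED21, KIF23, RPLP1 and GFPT2 lost the pattern. MRPL42 lost it with windows of 200 bp at summits, and MPI at a −log10 q of at least 5. The regions were chosen for high −log10 q, so that keeping the pattern in lists cut on −log10 q was nearly fixed by that choice. Of all 776 regions, 92 (11.9%) kept it at equal length and 58 (7.47%) at a −log10 q of at least 5.

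Outside gene ends, the highest-ranked region (chromosome X, 115885296 to 115885905) had no gene within 50 kb. Its folds were low (3.91, 4.44, 3.78 and 3.45) but rested on 35, 88, 54 and 41 reads. These are the most reads at any V2084D-carrying summit in 3 of the libraries, the exception being V2084D shSTUB1 replicate 1 (61 elsewhere). A WT peak lay 1826 bp away. CACNG2, a gene for an AMPA receptor auxiliary protein, held an intragenic region (chromosome 22, 36659797 to 36660319) with folds of 8.11, 8.67, 7.47 and 9.68. In a region of chromosome 6 (5891628 to 5892395) that had no gene nearby, the folds were nearly equal at 7.95, 7.81, 7.59 and 7.45. The other 5 lay inside LTBP4, a latent TGF-beta binding protein gene (5.75, 8.73, 6.80 and 7.56), CLN6, TBC1D24, LRRC8C, a subunit gene of volume-regulated anion channels, and GTPBP3, a mitochondrial tRNA modification enzyme gene. Those in CLN6, LRRC8C and GTPBP3 were within 1000 bp of an annotated internal start site of the same gene. At the other end of the ranking, SH3BP5 (folds 3.98, 3.60, 4.08 and 4.04, with 6 to 8 reads) and a gene-end region 112 bp from SMIM10L2B on chromosome X (3.66, 4.17, 4.38 and 3.79, with 4 to 7 reads) were the weakest. The lowest 5 also held regions at a gene end of MTUS1, 18053 bp from LRRC37A2 and, on chromosome 19, far from any gene with 3 reads in each of 3 libraries.

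**Figure D4:**
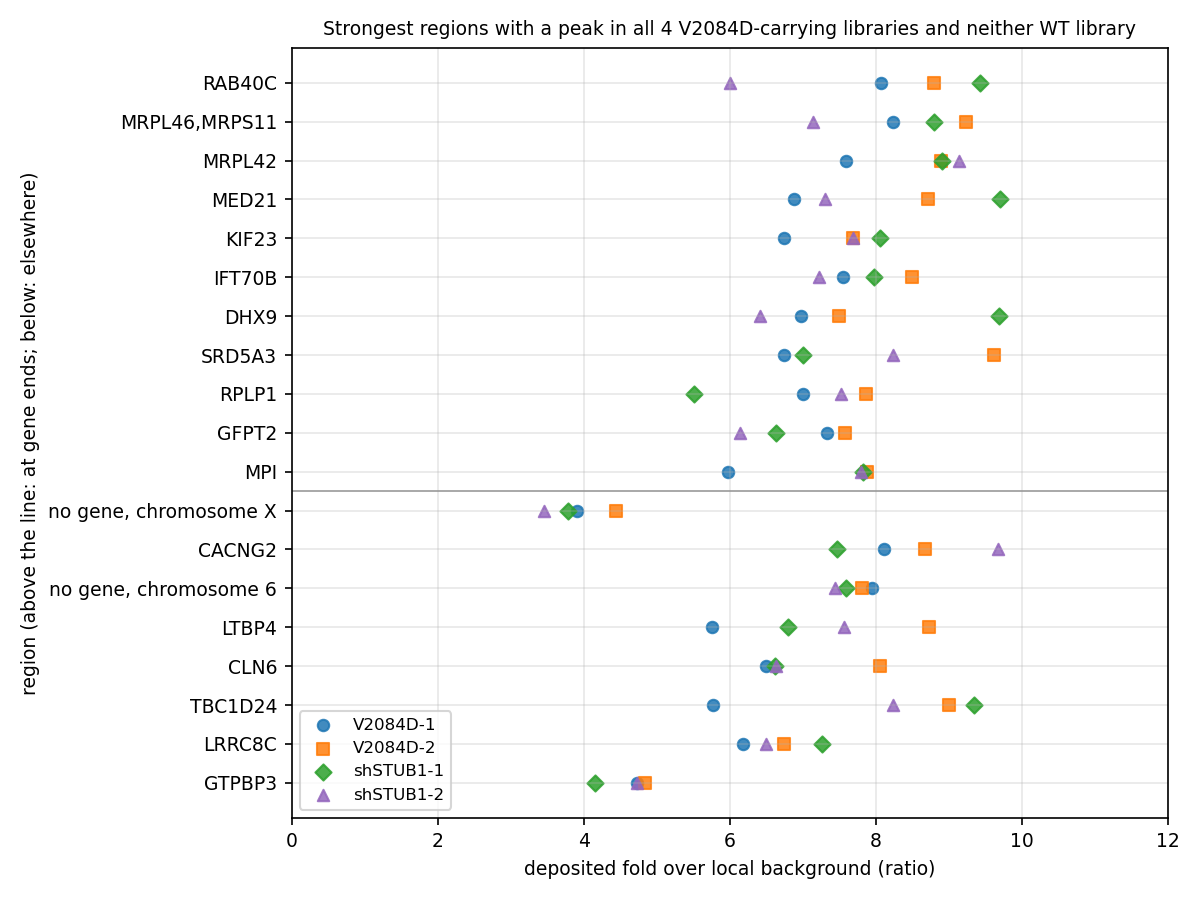
Deposited fold over local background (horizontal axis, ratio) in each of the 4 V2084D-carrying libraries for 11 of the 12 highest-ranked regions at gene ends (above the line) and the 8 highest-ranked elsewhere (below). Folds at these 11 gene-end regions lie between 5.52 and 9.71, while the chromosome X region (3.45 to 4.44) and GTPBP3 (4.15 to 4.84) are lower in all 4 libraries.

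V2084D-carrying genes came from many families, and their shares are set beside the 5.27% of all genes with a gene-end peak. Mediator subunits had 4 of 29 (13.8%), which included MED21, MED31 (5.0, 6.54, 5.71 and 5.11) and MED26. The listed peaks at MED26 did not all overlap, and MED26 had no V2084D-carrying region. RAB and ARL genes had 9 of 73 (12.3%), among them ARL1, a Golgi GTPase (8.64, 8.53, 6.25 and 6.52), and RAB3B, a regulator of vesicle exocytosis (4.95, 11.5, 10.5 and 5.49). That symbol pattern also took the RAB-binding proteins RAB3IP, RAB11FIP1 and RAB11FIP5. Mitochondrial ribosomal proteins had 7 of 70 (10%), with MRPS27 (6.41, 7.48, 6.67 and 7.32) and MRPS12 (4.82, 9.17, 8.56 and 5.39) next after those above, and the MRPS12 region was shared with SARS2. Translation initiation factors had 5 of 49 (10.2%), led by EIF3B (5.61, 5.76, 6.32 and 7.0), and aminoacyl-tRNA synthetases 3 of 31 (9.68%), SARS2, IARS2 and MARS2. Cytosolic ribosomal proteins, at 4 of 79 (5.06%), were near the background, with RPL21 (8.33, 8.57, 8.24 and 5.62) strongest after RPLP1. ZNF genes had 25 of 364 (6.87%), led by ZNF107 (5.97, 9.69, 8.25 and 6.85). Solute carriers had 12 of 208 (5.77%), proteasome subunits 2 of 41 (4.88%) and respiratory complex genes 3 of 81 (3.7%). Counts of this size carry wide counting error, the lists were chosen with earlier results known, and no list was tested.

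Pathway lists gave few members, and their shares stand beside the same 5.27% of all genes. SWI/SNF subunits had 1 of 20 (5%), SMARCD2, an accessory core subunit (4.74, 5.32, 6.03 and 7.35). The TGF-beta list had 2 of 19 (10.5%), among them the receptor gene TGFBR2 (4.94, 5.19, 5.26 and 4.32). The Wnt list had 1 of 19 (5.26%), CTNNB1, which encodes beta-catenin and is itself often mutated in liver cancer (5.56, 8.80, 8.19 and 8.05). DNA damage genes had 3 of 31 (9.68%), the nucleotide excision repair genes XPA (6.88, 8.41, 6.25 and 5.0) and ERCC1 and the end-joining gene XRCC5 (5.63, 9.04, 4.35 and 7.93). STUB1, chaperones and co-chaperones had 1 of 31 (3.23%), the HSP70 co-chaperone gene BAG5 (4.95, 6.18, 4.32 and 4.31), and DNAJ genes 3 of 33 (9.09%), with DNAJC28 strongest (6.82, 9.81, 7.22 and 6.32). In the set with WT replicate 1 in the place of V2084D replicate 1, counts differed in both directions. SWI/SNF had 1, TGF-beta 2, Wnt 3, DNA damage 5, the chaperone list 2 and DNAJ genes 1. With WT replicate 2 in that place they had 1, 0, 0, 0, 0 and 1. Single V2084D-carrying members were the cell cycle inhibitor gene CDKN1B (4.12, 5.69, 5.43 and 5.56), the death receptor gene TNFRSF10B (4.12, 7.53, 4.43 and 5.88) and F3, tissue factor (4.12, 4.96, 4.95 and 4.07). Their shares were 1 of 28 cell cycle genes (3.57%), 1 of 16 p53 targets (6.25%) and 1 of 17 YAP and TEAD genes (5.88%). These were near the share of all genes. At TNFRSF10B and F3 the peaks of the 4 libraries did not all overlap, so neither gene had a V2084D-carrying region. ETAA1, a replication stress response gene of the DNA damage list, had a WT-only pattern as a gene (4.55 and 5.0 in WT replicates 1 and 2). These peaks did not overlap, so ETAA1 had no WT-only region. Of the 23 pathway and marker lists, 15 had no V2084D-carrying gene, though lists this short can hold none at the share of all genes. Among them were other chromatin remodellers and modifiers (0 of 30), cholesterol and lipid synthesis (0 of 21), PI3K, AKT and mTOR (0 of 21), the unfolded protein response (0 of 20), AP-1 factors (0 of 13) and both hepatocyte marker lists (0 of 8 and 0 of 3). No marker of leukocytes, endothelium, fibroblasts, stellate cells or neurons was V2084D-carrying.

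A CCAAT box was less common in promoters inside V2084D-carrying regions than in those of regions open in all 6 lists, while GC content was close to that of comparable sets. The regions overlapped 532 distinct RefSeq promoters of 460 genes, with a median GC content of 67.7%, against 64.7% for 3241 promoters in regions of all 6 lists and 62.3% for all 22012 promoters. It was 66.3% and 65.7% in the sets with WT replicate 1 or WT replicate 2 in the place of V2084D replicate 1. A CCAAT box was present in 29.9%, against 47.2% of promoters in regions of all 6 lists and 34.7% of all promoters. In those 2 sets it was 37.2% of 516 and 35.2% of 213. A GC box was present in 74.6%, against 74.1% in regions of all 6 lists and 56.3% of all promoters, and 77.7% and 76.1% in the sets with a WT list. The ETS motif was present in 22.4%, against 24.2% in regions of all 6 lists and 12.8% of all promoters, and 17.2% and 23.5% in the sets with a WT list. For the motifs that follow, the 2 comparison shares are those of regions in all 6 lists and of all promoters. The AP-1 motif TGANTCA was present in 3.38%, against 2.9% and 6.16%, and the TEAD motif GGAATG in 10.7%, against 10.6% and 12.2%. The forkhead motif TGTTTAC was present in 0.94% (5 promoters), against 1.85% and 2.86%. In the sets with a WT list, AP-1 was at 3.88% and 2.82%, TEAD at 8.14% and 8.92%, and forkhead at 1.36% and 0.939%. All motifs were searched on both strands over the same 300 bases, and a match is a description of letters, not a binding site. These shares were not tested, since promoters are not replicates.

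By chromosome, the share of merged regions that were V2084D-carrying ran from 1.83% on chromosome 12 (26 of 1417) to 3.95% on chromosome 16 (36 of 912), with 3.92% on chromosome 15 (41 of 1047). Among regions of the 3 longest lists the same 2 chromosomes were highest, with 12.2% and 11.4%, and chromosome 12 was lowest with 5.71%. The set with WT replicate 1 in the place of V2084D replicate 1 made up 7.43% and 7.52% on chromosomes 16 and 15 and 9.45% on chromosome 12, so it was lower on the first pair and higher on the last. The densest window of 1 Mb was on chromosome 6 from 27388590 to 28388589, with 7 members among 55 regions. They lay at ZNF391, ZNF184, the histone gene H4C11, OR2B2, ZSCAN16 and ZSCAN9, and at 1 position away from any gene end or gene.

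**Figure D5:**
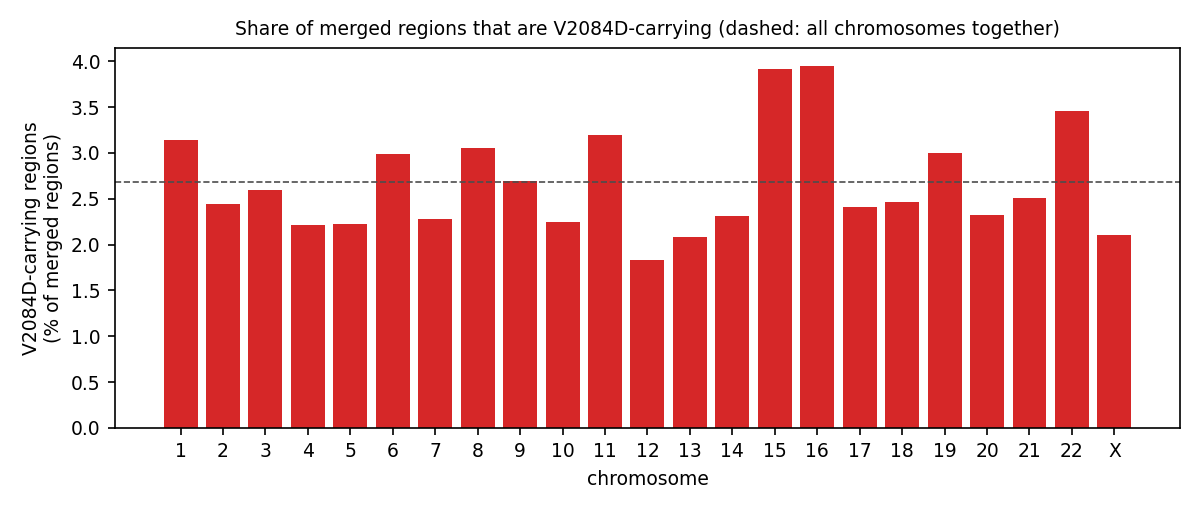
Share of merged regions that were V2084D-carrying (vertical axis, %) on each chromosome, with the share over all chromosomes dashed (2.69%). Chromosomes 16 (3.95%) and 15 (3.92%) are highest and chromosome 12 (1.83%) is lowest.

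The 19 WT-only regions were weak, and few lay at gene ends. Gene ends made up 4 of the 19 (21.1%), at FIGLA, ST6GALNAC2, ATF7 and the shared region of DXO and WHR1, and 7 (36.8%, against 28.1% of all regions) lay inside genes. Median folds were 4.48 and 4.29 in WT replicates 1 and 2, with a median of 5 reads at the summit in each. The leading region lay inside ASPH, an aspartyl hydroxylase gene (chromosome 8, 61689727 to 61690273), with folds of 6.49 and 6.06 on 9 and 7 reads. A region far from genes on chromosome X (126471764 to 126472373) had 5.07 and 7.08 on 6 and 16 reads. ALCAM, a cell adhesion gene, had 5.38 and 6.49, the sperm axoneme gene MORN3 6.41 and 4.17, and the adaptor gene PAG1 5.30 and 5.22. FER1L6, from which the region lay 18446 bp away, had 5.38 and 5.15, and DCLK1, a microtubule-associated kinase gene, 5.93 and 3.45. FIGLA, an oocyte transcription factor gene, had 4.41 and 5.22, ST6GALNAC2, a sialyltransferase gene, 4.46 and 5.21, and a region far from genes on chromosome 21 had 5.17 and 4.55. A region inside NR5A2, the gene of the liver receptor homolog LRH-1, was also WT-only, with 3.52 and 4.29 on 4 and 5 reads, and is named after its values were seen. At a −log10 q of at least 5 none of the first 10 kept the pattern.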

How the data were processed

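ATAC-seq was measured in 6 libraries of ARID1A-knockout Huh7 cells, grouped by title. The submitters' processing notes name hg38 as the build, MACS2, Bowtie2, Trimmomatic, Picard, SAMtools, deepTools and bedtools. Tool settings and a Tn5 shift are not given in these sources. Each library has its own narrowPeak list, deposited by the authors, so calling was by sample. The deposited values per summit are a fold (ratio) over local background, a −log10 p, a −log10 q and a score, which is the whole part of 10 times the −log10 q. They are the authors' own and were used to describe and rank peaks within a list.

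Chromosomes 1 to 22 and X were kept (2.07% to 2.60% of summits per library lay elsewhere). Where a list had several summits in a region, the one with the highest −log10 q was used. Percentiles are ranks of −log10 q within a list. Reads at summits were recovered by assuming a Poisson p and a fold of reads plus 1 over background plus 1, which gave whole reads within 0.001 in −log10 p for all but 1 summit in each of 4 lists. The lowest background gave the relative depth. Genes (19974 protein-coding) and promoters (22012 distinct, for 15712 genes) came from RefSeq tables of GRCh38. Exons and introns were not told apart. A gene end is either end of a gene, within 1000 bp.

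Counts were compared over all 15 ways to pick 2 of 6 libraries by a one-sided exact permutation test (share of the 15 values at least as large). Other settings tried were lists of equal length, a minimum −log10 q of 5, summit windows of 200 bp, a required cover of 50% of the region, 500 and 2000 bp around gene ends, omission of each library, and a replicate block of 9 pairs. Regions named were the first 12 at gene ends, the first 8 elsewhere, the last 5 and the first 10 WT-only by mean percentile, with up to 4 genes of each of 43 lists (23 of named genes, 20 symbol patterns). Of these, 1 gene-end region and a few listed genes are not reported here. The members and lists were chosen with earlier results of these data known. The merging and counting were tested on simulated lists. Python 3.11.15, pandas 2.3.3, numpy 2.4.6 and scipy 1.17.1 were used.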

Additional observations from a re-analysis of the deposited data

Results flagged for a closer look

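Over the 4 V2084D-carrying libraries, 26 sets of 4 values were examined for 1 value far from the other 3, which chance gives in about 1 in 20. In 4 sets the gap of the extreme value, as a share of the range, exceeded Dixon's 95% critical value for 4 samples. At MPI the gap was 0.959 of the range, with a fold of 5.98 in V2084D replicate 1 against 7.80 to 7.88 in the others. At CLN6 it was 0.918, with 8.06 in V2084D replicate 2 against 6.50 to 6.63. At GTPBP3 it was 0.841, with 4.15 in V2084D shSTUB1 replicate 1 against 4.73 to 4.84, and at MRPL42 it was 0.834, with 7.59 in V2084D replicate 1 against 8.89 to 9.15.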

How the results depend on the processing

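The region count and gene count of the V2084D-carrying set changed with the settings. At a −log10 q of at least 5 there were 342 V2084D-carrying and 8 WT-only regions, with 322 and 1 genes, and the V2084D-carrying region and gene counts both ranked 2nd of 15. Only 58 of the 776 (7.47%) kept the pattern there, so most of the 342 are other regions. At equal length there were 142 and 222 regions with 128 and 116 genes. With windows of 200 bp at summits there were 41 WT-only regions, and with a gene-end window of 500 bp 2 WT-only genes. Where a peak had to cover 50% of a region, 610 regions were V2084D-carrying, 140 of the 776 kept the pattern, and 6 of the first 12 did not keep it. The gene-end share stayed above that of all regions for V2084D-carrying regions under each of these settings and without each library. That was nearly bound to hold, since the share rose from 24.6% of regions in 1 V2084D list alone to 76.8% in all 6 lists. At a −log10 q of at least 5 the share was 77.8%. There 6 of 14 pairs, the WT pair included, were at least as high (one-sided p = 0.429 by exact permutation).

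Leaving out a library loosens the rule. Without a single library, V2084D-carrying regions numbered 793 to 2153, WT-only regions 21 to 646, V2084D-carrying genes 622 to 1787 and WT-only genes 5 to 48. Counts over 1.5 times the 776 came without WT replicate 1 (2153), WT replicate 2 (1207), V2084D replicate 1 (2128) and V2084D shSTUB1 replicate 2 (1187). The 612 genes became 1787, 966 and 1342 without WT replicate 1, WT replicate 2 and V2084D replicate 1. In the replicate block, which keeps the 9 pairs with 1 library of each replicate number, the 776 regions had a one-sided p of 0.222 and the 612 genes 0.111 by exact permutation, the smallest 9 pairs allow. In the same block p was 0.889 for the 19 regions and the 5 genes, 0.222 for the 66.8% and 0.667 for the 21.1%. Differences between replicates correlated at −0.01 to 0.04 across groups, so the lists gave no sign of pairing by replicate number. Calls on few reads cannot show whether libraries were processed in pairs. With few reads at each summit, regions near the calling threshold limit the precision of every count.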
